A study of Mus musculus with 6 samples.

Results

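Thalamic relay neuron identity genes are described here: 10 genes of the 26554 features measured in each library, found by their gene names in the authors' tables. They are the transcription factor genes Tcf7l2, Lef1, Gbx2, Rora, Shox2 and Zic1 and the effector genes Prkcd, Ntng1, Rgs16 and Plekhg1. Each name matched 1 feature, and each feature carried the same symbol in the reference annotation. The tissue was VPL/VPM, the 2 ventral posterior nuclei that relay body and face sensation, and the mice modelled pain that follows a thalamic stroke. One group of 3 libraries came from wild-type (WT) C57 mice 14 days after 10 nL of type IV collagenase (0.01 U) had been placed in the right VPL/VPM, and the other group of 3 from WT C57 mice 14 days after 10 nL of saline. Collagenase digests the vessel wall and causes a small local haemorrhage, and the saline animals share the needle track but not the enzyme. The labels give neither the age of the mice nor the number of animals in a library, so a p-value here reflects library-to-library spread, which may be technical.

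Relay neurons are the glutamatergic cells that receive sensory input and send it to the cortex. Their identity is set in development by transcription factors, among them Tcf7l2, Gbx2 and Rora, and part of this programme stays on in the adult, where it accompanies the channels and receptors that let these cells fire in bursts or single spikes. TCF/LEF proteins, which include the products of Tcf7l2 and Lef1, bind DNA through an HMG box and act with beta-catenin in Wnt signalling. In bulk tissue, fewer relay cells and less RNA per relay cell cannot be told apart.

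Total counts per library lay between 33603076 and 44815451. For the labelled tissue 1 further gene of relay neurons was read, the vesicular glutamate transporter gene Slc17a6, which alone does not identify the nuclei. Slc17a6 measured 433, 466 and 572 CPM (counts relative to library size, scaled by TMM factors) in collagenase replicates 1, 2 and 3, against 529, 399.9 and 632 CPM in saline replicates 1, 2 and 3. Libraries stood apart in tissue from neighbouring structures. Ttr, the transthyretin gene of choroid plexus, measured 1669, 1853 and 10.2 CPM in collagenase replicates 1, 2 and 3, against 847, 2382 and 12.9 CPM in saline replicates 1, 2 and 3. The summed level of 9 striatal genes was 1151 CPM in saline replicate 3 and between 192 and 403 CPM in the other 5 libraries. Mitochondrial transcripts took 15.9% of the counts of saline replicate 3 and between 7.48% and 11.7% of the others.

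None of the 10 genes passed the test between collagenase and saline, in either direction. In edgeR's quasi-likelihood test 0 of 10 had an adjusted p under 0.05, and 0 of 10 an unadjusted p under 0.05. Over all 17240 tested genes 2.41% passed, 2.12% as higher and 0.29% as lower in collagenase libraries. DESeq2 also called 0 of the 10, with 2 of 10 at an unadjusted p under 0.05, and limma on the deposited FPKM values (fragments scaled by transcript length and library depth) called 0 with 0 at an unadjusted p under 0.05. The ranges of the groups overlapped for all 10 genes, whereas 17.6% of all tested genes had ranges that did not overlap. Of the 10 log2 fold changes (collagenase over saline) 9 were negative and 1, that of Gbx2, positive. Their median was -0.25, beside a median of -0.02 over all tested genes.

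All 10 genes were well expressed in every library, with counts from 871 (Gbx2) to 48230 (Prkcd). On the scale of FPKM, which allows levels to be compared between genes, Prkcd stood first with 269.5 ± 22.2 FPKM in collagenase libraries and 319.5 ± 64.0 FPKM in saline libraries (SD, n = 3 each), above 99.3% of tested genes. The lowest were Lef1, with 19.7 ± 1.74 FPKM in collagenase and 21.9 ± 8.01 FPKM in saline libraries, and Gbx2, with 18.5 ± 5.82 FPKM in collagenase and 16.0 ± 5.60 FPKM in saline libraries. Ntng1, Tcf7l2, Rgs16, Zic1, Plekhg1, Rora and Shox2 followed Prkcd in that order of mean level, from 79.6 down to 43.7 FPKM over the 6 libraries. Neighbours among these 7 did not separate, since each neighbouring pair changed places in 1 or 2 of the 6 libraries and their ranges overlapped. Prkcd lay above Ntng1 and Shox2 above Lef1 in all 6 libraries without overlap, and Lef1 and Gbx2 overlapped.

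**Figure D1:**
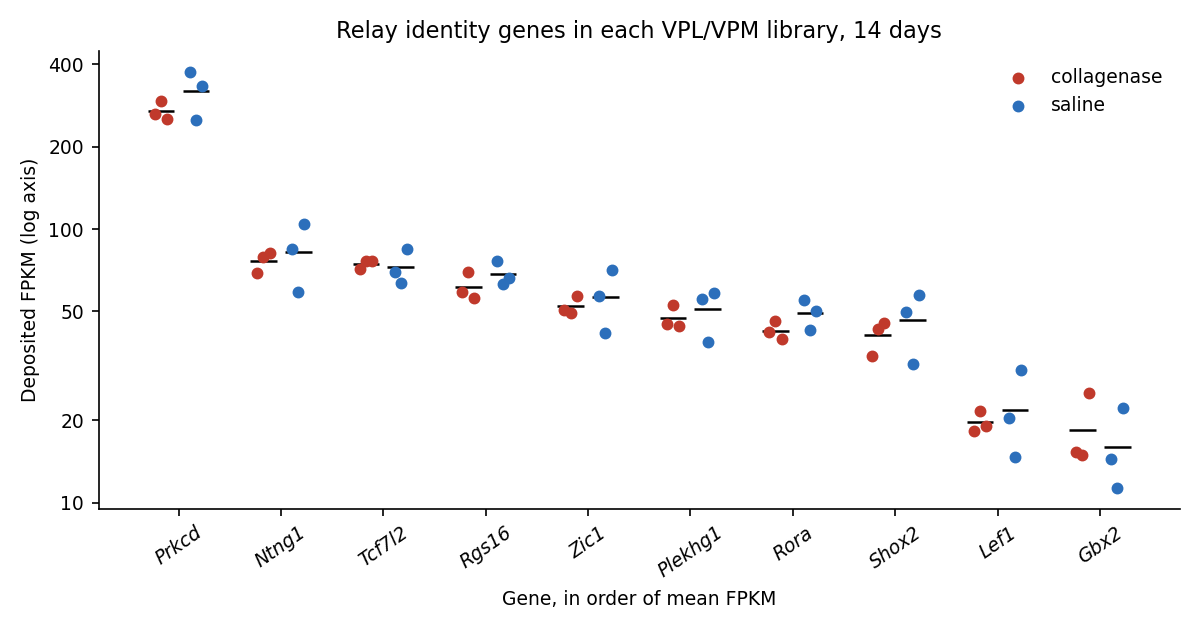
Deposited FPKM (log axis) of the 10 relay identity genes in order of mean level; each point is 1 library, red for collagenase and blue for saline (3 each), and black lines are group means. Prkcd stands above the rest in every library, with means of 269.5 and 319.5 FPKM in collagenase and saline libraries, and the colours overlap for each gene.

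Promoters of 3 of these genes held the core of a TCF/LEF site and are shown because Tcf7l2 and Lef1 are themselves on the list. The core searched was CTTTGA on both strands (TCAAAG on the other) in the 250 bases before each RefSeq start site (build GRCm38.p6), and the capitals mark it. Each sequence runs 5′ to 3′ on the strand of its gene.
Shox2 (3, minus strand, chr3:66981772-66982021): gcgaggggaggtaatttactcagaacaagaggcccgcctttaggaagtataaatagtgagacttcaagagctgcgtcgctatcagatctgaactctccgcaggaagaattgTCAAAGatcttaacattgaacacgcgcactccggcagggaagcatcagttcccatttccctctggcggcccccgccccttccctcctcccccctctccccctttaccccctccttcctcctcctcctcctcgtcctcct
Prkcd (14, minus strand, chr14:30626209-30626458): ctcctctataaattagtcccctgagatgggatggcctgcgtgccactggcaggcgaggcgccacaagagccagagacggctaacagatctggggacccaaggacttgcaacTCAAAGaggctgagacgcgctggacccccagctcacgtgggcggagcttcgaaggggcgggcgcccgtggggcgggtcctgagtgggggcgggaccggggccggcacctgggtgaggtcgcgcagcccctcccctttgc
Lef1, start site 4 (3, plus strand, chr3:131156044-131156293): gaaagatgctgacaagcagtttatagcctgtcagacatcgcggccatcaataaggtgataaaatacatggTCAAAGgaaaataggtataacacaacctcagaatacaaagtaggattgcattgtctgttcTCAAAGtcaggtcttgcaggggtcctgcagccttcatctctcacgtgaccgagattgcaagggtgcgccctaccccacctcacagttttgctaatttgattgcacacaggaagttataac
In Shox2 and Prkcd the match begins 139 bases before the start site, and in Lef1 the 2 matches begin 180 and 120 bases before it. The Lef1 stretch lies within the gene, in no exon that GENCODE M21 annotates. The core was found in 3 of the 15 start sites that RefSeq gives for the 10 genes and in 13.8% of 32851 promoters of all genes. The core AGGTCA of ROR receptors such as the Rora product, searched in the same way, was found in 0 of the 15 and in 14.0% of all promoters. A match of letters is not a binding site.

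Of the transcription factor genes, Tcf7l2 and Lef1 encode the TCF/LEF proteins. Tcf7l2 (ENSMUSG00000024985, GRCm38 chromosome 19, 55741820 to 55933654, plus strand), a factor needed to keep thalamic neurons in their adult state, measured 220.0, 254 and 252 CPM in collagenase replicates 1, 2 and 3, against 241, 222 and 312 CPM in saline replicates 1, 2 and 3. Saline replicate 3 was the highest library and collagenase replicate 1 the lowest, and the groups overlapped. Its log2 fold change was -0.09 with a 95% interval of -0.42 to 0.23 (edgeR adjusted p 0.871), the interval being among the narrowest of the 10. With FPKM in place of counts the sign turned: Tcf7l2 was at 71.5, 76.3 and 76.6 FPKM in collagenase replicates 1, 2 and 3, against 69.6, 63.3 and 84.6 FPKM in saline replicates 1, 2 and 3, a log2 fold change of 0.05 in limma with a pseudocount of 1.

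Lef1 (ENSMUSG00000027985, chromosome 3, 131110471 to 131224356, plus strand), a partner of beta-catenin that thalamic neurons keep into adulthood, measured 58.0, 74.3 and 68.3 CPM in collagenase replicates 1, 2 and 3, against 71.9, 52.7 and 114 CPM in saline replicates 1, 2 and 3. The 3 collagenase values lay inside the saline range, and saline replicate 3 stood above every other library. The log2 fold change was -0.25 (95% interval -0.85 to 0.35, edgeR adjusted p 0.798). Without saline replicate 3 it was 0.10.

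Gbx2 (ENSMUSG00000034486, chromosome 1, 89927956 to 89931179, minus strand), a homeobox gene required for the thalamus to form and to send axons to the cortex, measured 32.1, 33.1 and 56.3 CPM in collagenase replicates 1, 2 and 3, against 32.8, 25.3 and 55.6 CPM in saline replicates 1, 2 and 3. It was high in replicate 3 of each group and at most 33.1 CPM elsewhere, so that the spread within groups exceeded the difference between them. The log2 fold change was 0.10 (95% interval -0.70 to 0.90, edgeR adjusted p 0.955), and this was the widest interval of the 10. It was -0.22 without collagenase replicate 3, -0.13 without saline replicate 2 and 0.47 without saline replicate 3.

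Rora (ENSMUSG00000032238, chromosome 9, 68653786 to 69388246, plus strand) encodes an orphan nuclear receptor that marks sensory relay nuclei, and its mean difference was the second largest. It measured 444, 522 and 449 CPM in collagenase replicates 1, 2 and 3, against 636, 484 and 635 CPM in saline replicates 1, 2 and 3. Saline replicate 2 fell inside the collagenase range, and the other saline libraries lay above all collagenase libraries. The log2 fold change was -0.31 with a standard error (SE) of 0.14 and a 95% interval of -0.63 to 0.01, with p 0.0537 before and 0.430 after adjustment in edgeR.

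The homeobox gene Shox2 and the zinc finger gene Zic1 followed the same order of libraries. Shox2 (ENSMUSG00000027833, chromosome 3, 66971727 to 66981771, minus strand) measured 94.3, 124 and 129 CPM in collagenase replicates 1, 2 and 3, against 146, 91.6 and 181 CPM in saline replicates 1, 2 and 3. Zic1 (ENSMUSG00000032368, chromosome 9, 91358058 to 91365810, minus strand) measured 272, 278 and 325 CPM in collagenase replicates 1, 2 and 3, against 334, 242 and 446 CPM in saline replicates 1, 2 and 3. In both genes saline replicate 2 was the lowest and saline replicate 3 the highest of the 6 libraries, and the collagenase libraries lay between them. The log2 fold changes were -0.27 for Shox2 (95% interval -0.82 to 0.28) and -0.22 for Zic1 (95% interval -0.70 to 0.25), with edgeR adjusted p-values of 0.746 and 0.754. An exon of Rsrc1 overlaps Shox2 on the opposite strand, and Rsrc1 measured 97.8 to 111 CPM, while Zic4, whose exons overlap Zic1, measured only 13.5 to 27.9 CPM. No protocol step that marks the strand is named, so reads in these overlaps may have gone to either gene. Exons on the opposite strand also overlap Lef1 (Gm43352), Gbx2 (D130058E05Rik), Rora (Gm15511) and Rgs16 (Gm28513). These partners were not found among the measured features, so any of their reads in the overlaps may have been counted for the listed genes.

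Prkcd gave the largest mean difference of the 10 and did not pass. Prkcd (ENSMUSG00000021948, chromosome 14, 30595354 to 30626210, minus strand), which encodes protein kinase C delta and is a standard marker of thalamic neurons, measured 696, 836 and 717 CPM in collagenase replicates 1, 2 and 3, against 1087, 718 and 1063 CPM in saline replicates 1, 2 and 3. Saline replicates 1 and 3 lay above every collagenase library, and saline replicate 2 lay among the collagenase libraries. The log2 fold change was -0.35 (SE 0.17, 95% interval -0.74 to 0.04), with p 0.0750 before and 0.482 after adjustment in edgeR. On the linear scale the interval runs from 0.597-fold to 1.03-fold.

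Ntng1 (ENSMUSG00000059857, chromosome 3, 109780040 to 110144011, minus strand) encodes netrin-G1, a membrane-anchored protein of thalamocortical axons that binds the Lrrc4c product. It measured 309.6, 380.1 and 381 CPM in collagenase replicates 1, 2 and 3, against 425, 303 and 559.8 CPM in saline replicates 1, 2 and 3. The collagenase libraries again lay inside the saline range. The log2 fold change was -0.27 (95% interval -0.75 to 0.21, edgeR adjusted p 0.711). Of the netrin-G partner genes Lrrc4, Lrrc4b and Lrrc4c 0 of 3 passed, with log2 fold changes of -0.17, -0.02 and -0.16.

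The signalling regulators Rgs16 and Plekhg1 completed the list. Rgs16 (ENSMUSG00000026475, chromosome 1, 153740349 to 153745468, plus strand), an activator of G protein GTPase activity, measured 135, 169 and 138 CPM in collagenase replicates 1, 2 and 3, against 189.9, 154 and 181 CPM in saline replicates 1, 2 and 3. It was the gene of the 10 with the lowest biological coefficient of variation, 12.5%, against a median of 16.9% over all tested genes, and its log2 fold change was -0.25 (95% interval -0.54 to 0.05, edgeR adjusted p 0.512). Plekhg1 (ENSMUSG00000040624, chromosome 10, 3740364 to 3967303, plus strand), an exchange factor for small GTPases, measured 311, 389.7 and 328 CPM in collagenase replicates 1, 2 and 3, against 418, 286 and 484 CPM in saline replicates 1, 2 and 3. For Rgs16 saline replicate 2 lay inside the collagenase range, and for Plekhg1 all collagenase libraries lay inside the saline range. The Plekhg1 log2 fold change was -0.21 (95% interval -0.64 to 0.23, edgeR adjusted p 0.755).

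**Figure D2:**
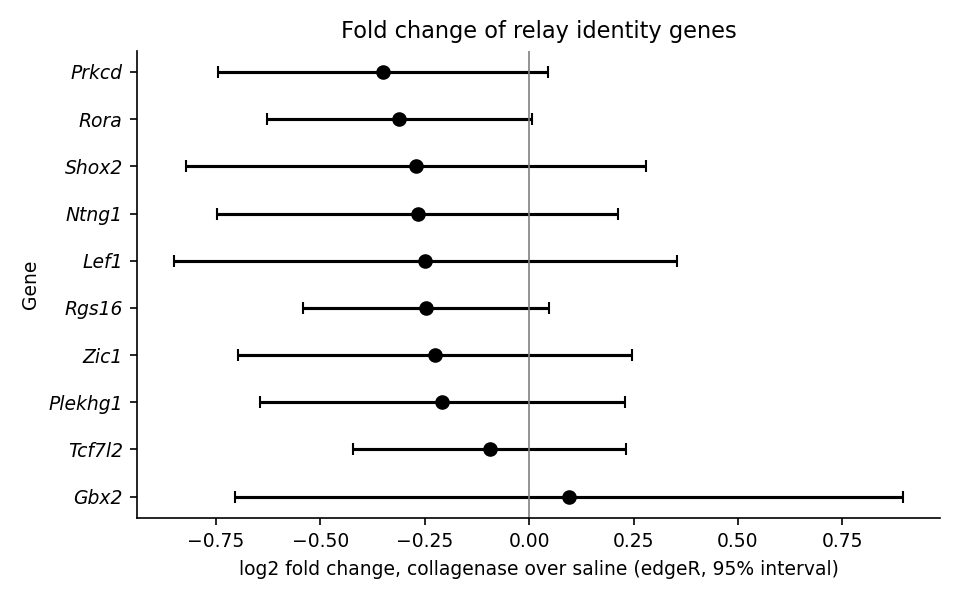
Log2 fold change of each gene, collagenase over saline, from edgeR's quasi-likelihood fit over 3 libraries a group; bars are 95% intervals. The intervals of all 10 genes include 0, from Prkcd at -0.35 to Gbx2 at 0.10.

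The saline libraries were spread more widely than the collagenase libraries for most of the 10 genes. Saline replicate 2 was the lowest saline library for 10 of 10 genes, beside 32.0% of all tested genes, and saline replicate 3 the highest for 7 of 10, beside 39.6%. The other 3 genes, Prkcd, Rgs16 and Rora, were highest in saline replicate 1. The saline range was wider than the collagenase range for 9 of 10 genes, beside 63.0% of tested genes with counts in every library, and the exception was Rgs16. The median range in log2 CPM over the 10 genes was 0.31 among collagenase libraries and 0.82 among saline libraries, beside 0.29 and 0.40 over all tested genes. For Ntng1, Zic1, Plekhg1, Shox2 and Lef1, 5 of 10 genes, every collagenase library lay inside the saline range, beside 27.0% of all tested genes.

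**Figure D3:**
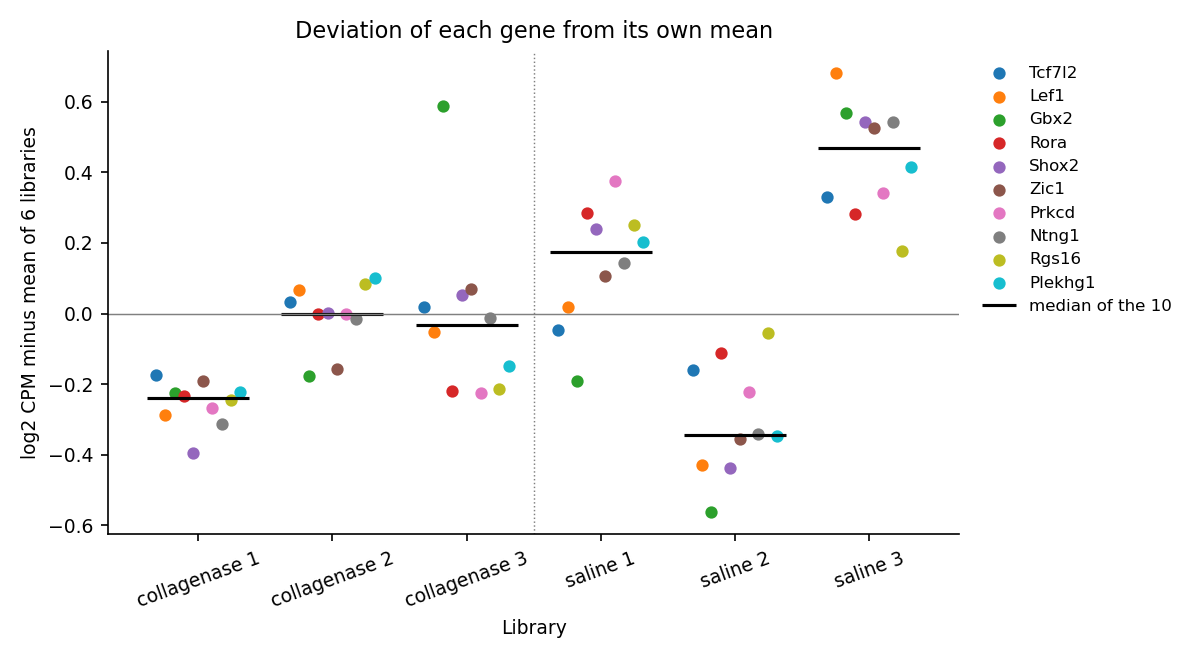
Log2 CPM of each gene minus its mean over the 6 libraries; points are genes, black lines their median in a library, and the dotted line divides collagenase (left) from saline (right). The median was -0.24, 0.00 and -0.03 in collagenase replicates 1, 2 and 3, and 0.17, -0.34 and 0.47 in saline replicates 1, 2 and 3, with Gbx2 alone far above the rest in collagenase replicate 3.

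The differences shifted when single libraries were left out. Without saline replicate 2 all 10 log2 fold changes were negative, with a median of -0.43 and 8 of 10 at an unadjusted p under 0.05, but 0 passed and the smallest edgeR adjusted p was 0.103 (Prkcd, log2 fold change -0.52). Without saline replicate 3 the median was -0.04, with 6 negative and 4 positive values. Rora, Prkcd and Rgs16 kept negative values in each of the 6 fits with 1 library removed, from -0.43 to -0.25 for Rora, from -0.52 to -0.25 for Prkcd and from -0.36 to -0.18 for Rgs16. Shox2, Ntng1 and Plekhg1 were also negative in all 6 fits, but reached -0.04, -0.03 and -0.04 without saline replicate 3.

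**Figure D4:**
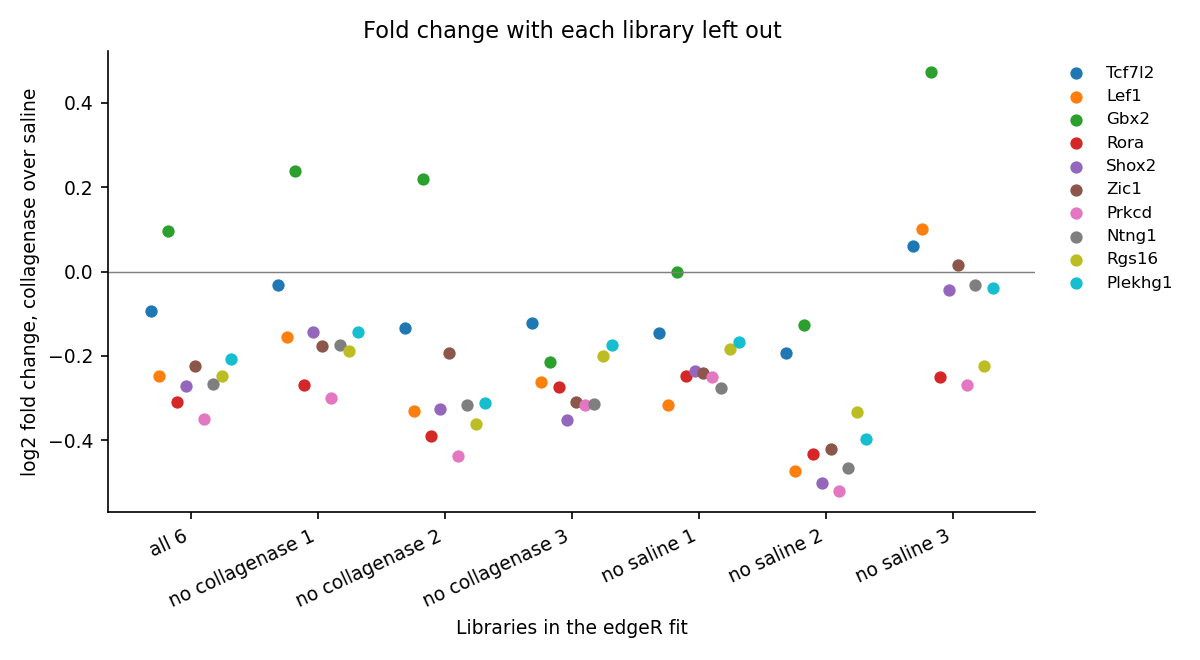
Log2 fold change (collagenase over saline, edgeR) of each gene with all 6 libraries and with each library left out. Points shift down without saline replicate 2 (median -0.43) and up towards 0 without saline replicate 3 (median -0.04), where Gbx2 reached 0.47.

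Markers of neighbouring tissue varied between the same libraries. The summed level of the 10 genes was 2572, 3062 and 2843 CPM in collagenase replicates 1, 2 and 3, against 3582, 2579 and 4032 CPM in saline replicates 1, 2 and 3. The 9 genes of choroid plexus and ependyma, led by Ttr, Kl and Clic6, summed to 63.8 to 2008 CPM in collagenase and 60.5 to 2624 CPM in saline libraries, and 0 of 9 passed (median log2 fold change 0.25). Saline replicate 2, lowest in the relay genes among saline libraries, was highest in this list, and saline replicate 3, highest in the relay genes, was lowest. The collagenase libraries did not show this inverse order. Their sums for this list were 1860, 2008 and 63.8 CPM in replicates 1, 2 and 3. Collagenase replicate 2 was thus highest in both lists, and collagenase replicate 3, lowest in this list, was intermediate in the relay genes. The part of these tissues in the relay values was not tested.

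Other neighbours showed other orders. The 12 habenular genes, led by Lrrc55, Nwd2 and Tac2, summed to 229, 124 and 338 CPM in collagenase replicates 1, 2 and 3, against 40.7, 54.8 and 264 CPM in saline replicates 1, 2 and 3. The sum was thus highest in the replicate 3 libraries, where Gbx2 was also highest, and its part in the Gbx2 values was not tested. Of these genes 0 of 12 passed, with a median log2 fold change of 0.93. Necab1 and Calb2, markers of medially placed thalamic neurons chosen after their values were seen, measured 339 and 247 CPM in collagenase replicate 3 and 352 and 162 CPM in saline replicate 3. In the other 4 libraries Necab1 lay between 119 and 203 CPM and Calb2 between 93.5 and 144 CPM. The striatal list, led by Pde10a, Ppp1r1b and Penk, had 0 of 9 called and a median log2 fold change of -0.99. The hippocampal and cortical list, led by Cux2, Wfs1 and Rasgrf2, summed to 219 to 261 CPM in collagenase and 296 to 351 CPM in saline libraries, with 0 of 16 called. The hypothalamic list, led by Th, Pmch and Trh, summed to 21.1 to 49.9 CPM in collagenase and 18.4 to 61.5 CPM in saline libraries, with 0 of 11 called.

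**Figure D5:**
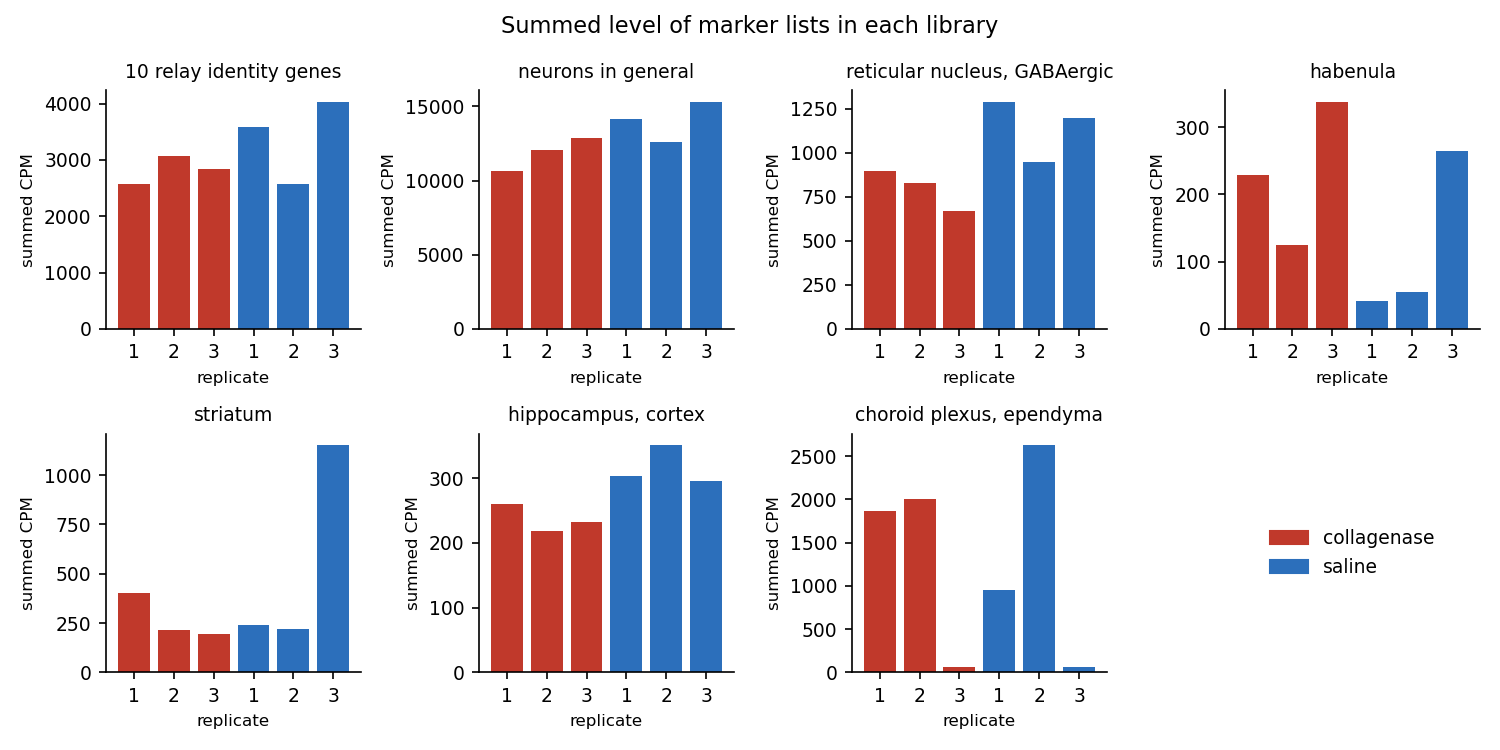
Summed CPM of the 10 relay identity genes and of 6 marker lists in each library; bars are single libraries, red for collagenase and blue for saline. Choroid plexus genes are near 0 in replicate 3 of each group (63.8 CPM in collagenase, 60.5 CPM in saline), and striatal genes reach 1151 CPM in saline replicate 3.

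Pan-neuronal genes also had mostly negative values without passing the test. Of 17 pan-neuronal genes 0 passed, 15 log2 fold changes were negative and 2 positive, with a median of -0.19. Their summed level was 10669 to 12852 CPM in collagenase and 12574 to 15309 CPM in saline libraries. Set against that sum in each library, 7 of the 10 relay genes had a higher mean in collagenase and 3 (Rora, Prkcd and Rgs16) a lower one, and the groups overlapped for all 10. Relative to the neuronal sum the mean log2 difference (collagenase minus saline) was 0.36 for Gbx2, 0.16 for Tcf7l2 and from -0.09 to 0.06 for the other 8. Ndrg4, Snap25 and Syt1, the most abundant genes in that sum, had log2 fold changes of -0.32, -0.40 and -0.31, below the list median of -0.19. The split by direction may therefore depend on which neuronal genes are summed, and other sums were not tried.

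Other genes of relay neurons were read from lists, which were chosen with earlier results of these data known. Of 25 genes of their transmitter, channels and subnucleus identity 0 passed, 21 log2 fold changes were negative and 4 positive, and the median was -0.19. The negative values include that of Amotl1 (-0.69), whose count in collagenase replicate 3 was out of line with its FPKM, as described below. Of 15 tested genes of other thalamic transcription factors 0 passed, with 11 negative and 4 positive and a median of -0.17. Paralogues of the 10 genes, such as Zic2, Rorb and Ntng2, gave 0 of 25 with a median of -0.00. The wider Wnt pathway gave 0 of 34, with a median of 0.08. Its feedback gene Axin2, a common readout of TCF/LEF activity chosen after its values were seen, measured 31.5 ± 1.56 CPM in collagenase and 28.6 ± 3.73 CPM in saline libraries (SD, n = 3 each; edgeR adjusted p 0.746).

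Several of the 10 genes are also expressed outside relay neurons, and the markers of those cells were read beside them. Tcf7l2 is made by differentiating oligodendrocytes, of whose 9 tested genes 0 passed (median log2 fold change -0.05), with Bcas1, Fyn and Myrf the highest. Mature oligodendrocyte genes, among them Mbp and Mobp, gave 0 of 10 (median -0.13). Lef1 is made by brain endothelium, where 0 of 13 genes passed (median 0.13, with Slc2a1, Flt1 and Ly6c1 the highest), and by T cells. The T cell genes Cd3g, Cd8a and Cd3e passed and had 0 counts in all saline libraries. In collagenase libraries Cd8a measured 3.19, 1.02 and 1.35 CPM in replicates 1, 2 and 3. On that list 3 of 7 tested genes were called higher and 0 lower (median 1.49). The genes of the list with the highest levels, Bcl11b, Tcf7 and Cd4, were each highest in saline replicate 3, at 34.6, 8.21 and 13.1 CPM, and Lef1 was highest in that library too. Bcl11b is also on the hippocampal and cortical list. The whole list summed to 16.9 to 36.4 CPM in collagenase libraries, against 14.6, 16.0 and 56.4 CPM in saline replicates 1, 2 and 3. In saline replicate 3 nearly all of this sum came from Bcl11b, Tcf7 and Cd4, while Cd3g, Cd8a and Cd3e had 0 counts. The part of this list in the Lef1 values was not tested.

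Zic1 is also made by meningeal cells. Of 11 meningeal and perivascular fibroblast genes 3 rose, the collagen chains Col1a2 and Col1a1 and the proteoglycan gene Dcn, with log2 fold changes of 1.26, 1.60 and 1.25 (edgeR adjusted p 0.0148, 0.0356 and 0.0422). The list summed to 207 to 251 CPM in collagenase and 114 to 156 CPM in saline libraries, while Zic1 was at 292 ± 29.4 CPM in collagenase and 341 ± 102 CPM in saline libraries (SD, n = 3 each). Of 15 reticular and other GABAergic genes, 1 fell, the homeobox gene Dlx1, with a log2 fold change of -1.10 (edgeR adjusted p 0.0328). That list, in which Gad1, Gad2 and Slc32a1 were the highest, had a median of -0.83. Glial lists held members that rose: 2 of 10 astrocyte genes, Gfap and Aqp4 (list median 0.17), and 7 of 10 microglial genes, among them Trem2, Cd68 and Ctss (list median 1.14). The microglial list summed to 637 to 963 CPM in collagenase and 315 to 337 CPM in saline libraries, and the part of this difference in the relay values was not tested.

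For the 3 genes of the list with the widest range over the libraries, Gbx2, Lef1 and Shox2, the most alike of 12929 other genes were sought. Likeness was the root mean square difference of log2 CPM, each gene centred on its mean over the 6 libraries. Rph3al, Kcnip1 and Fam210b were nearest to Gbx2, with differences of 0.04, 0.12 and 0.12. Kcnip1, which encodes a subunit of A-type potassium channels, measured 44.6, 40.6 and 65.1 CPM in collagenase replicates 1, 2 and 3, against 37.2, 32.8 and 76.9 CPM in saline replicates 1, 2 and 3. Tmem131 and Fstl4 were close to Lef1, with differences of 0.05 and 0.06. Nearest to Shox2 were Ntng1, itself one of the 10, at 0.07, then Osbpl3 and Synpo2 at 0.08 each. With 6 libraries and many genes, some genes are close to any profile.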

How the data were processed

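Poly(A) RNA of VPL/VPM tissue was sequenced in 6 libraries. Per the labels' protocols, RNA was captured on oligo(dT) beads and amplified by PCR, with no strand-marking step named. Build GRCm38 and the tools StringTie, HISAT2 2.2.1, DESeq2 and FastQC are listed, without roles, per the submitters' processing notes. For each feature the authors deposited its count of reads and its FPKM. Totals differed between libraries, so the counts are not scaled to a common depth. Annotation text on lines of its own (10 to 30 per library) was skipped. Symbols came from a reference table by Ensembl identifier (22022 of 22036 matched), and positions from GENCODE M21 (GRCm38).

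The test on counts used edgeR 4.0.16 (R 4.3.3): filterByExpr, TMM factors (0.898 to 1.06), robust quasi-likelihood F-test, two-sided, Benjamini-Hochberg adjustment over 17240 genes, threshold 0.05. Intervals are 95%. Alternatives were DESeq2 1.42.0, limma 3.58.1 on log2(FPKM + 1) and log2(FPKM + 0.1), other scalings, no filter, a replicate block and leaving out each library. The fit was tested on simulated data. The 10 genes and all lists were chosen with earlier results of these data known. Lists were not tested as sets; called members were named by smallest p and markers of other tissues by highest level, at most 3 each, and the genes nearest to 3 of the 10 by profile. Listed genes that were not matched (2) are left out, and some genes that this rule names are not reported here.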

Additional observations from a re-analysis of the deposited data

How the results depend on the processing

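The count of relay identity genes that passed was 0 under all 14 alternatives, and 132 of 140 log2 fold changes of single genes kept their direction. The exceptions were Tcf7l2, at 0.054 with log2(FPKM + 1) and 0.055 with log2(FPKM + 0.1), and Tcf7l2, Lef1, Gbx2 and Zic1 in fits without a library, which ranged from -0.19 to 0.062, from -0.47 to 0.10, from -0.22 to 0.47 and from -0.42 to 0.016. The median of the 10 was -0.25, from -0.43 to -0.035 without a library, and -0.087 with log2(FPKM + 1) and -0.089 with log2(FPKM + 0.1). FPKM and total-count scaling moved the median of all tested genes from -0.02 to between 0.06 and 0.08. Calls over all genes were 416 (366 higher, 50 lower), and without a library 85 to 917 (81 to 503 higher, 4 to 414 lower). DESeq2 called 788 (608 higher, 180 lower), total-count scaling 29 lower, and either FPKM setting 24 lower. The cause of these shifts was not tested. Whether replicate numbers pair the libraries was not settled. Deviations of same-numbered libraries correlated at 0.04, 0.11 and 0.20 over genes, and those of differently numbered libraries at -0.16 to 0.08. Collagenase replicate 1 was closer to saline replicate 2 (0.08) than to saline replicate 1 (0.04). With the number as a replicate block 302 genes passed, 0 of the 10 among them, with a median of -0.21. Only 3 libraries a group limit the precision of every value.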

Other observations

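Amotl1, which encodes a junction-associated angiomotin and was on the list of other relay genes, had 777 counts in collagenase replicate 3, against 9749 and 8538 counts in collagenase replicates 1 and 2 and 7027 to 11818 counts in the saline libraries. Its deposited FPKM was 6.32 in collagenase replicate 3 and 21.9 to 28.2 in the other libraries. The count per FPKM unit was 123 there, against 321 to 419.5 elsewhere, whereas for Tcf7l2 it was 127 there and 121 to 153 elsewhere. It was singled out after its values were seen. The part of the feature's definition in that library was not tested.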
